A study of Mus musculus with 60 samples.

Results

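Messenger RNA of 8 DNA repair genes was measured in the hippocampus of mice with and without a Huntington's disease transgene. The genes are Msh3, Msh6, Mlh3, Pms1, Pms2, Fan1, Lig1 and Ogg1. They were taken by name from the deposited expression table, as genes known from repeat expansion, but with earlier results of these data known, so counts over them are descriptions. All 8 were found among its 24508 genes. The comparison was between 9 wild-type (WT) libraries and 9 R6/1 libraries, each from a separate biological replicate of 30-week-old mice on a mixed CBA x C57BL/6 background. R6/1 mice carry, beside both copies of their own huntingtin gene, a transgene that holds the human promoter, the human gene's first exon and an expanded CAG repeat, so every cell type in which that promoter is active can make the mutant fragment. The sex of the mice and the length of the repeat were not given in the sources used here. Lamin B1 ChIP-seq of the same tissue, age and genotypes came from 3 replicates of pooled tissue from 5 mice for each genotype, and was deposited as 1 list of domains per genotype. ATAC-seq was not analysed here.

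Mismatch repair starts with a MutS dimer that binds mispaired or extruded bases. Msh6 forms the MutSα dimer, which binds base mismatches and very short loops, and Msh3 forms MutSβ, which binds longer loops such as those that CAG repeats extrude. Both pair with the same partner subunit, which was not analysed here. A MutL dimer then joins: Pms2 belongs to MutLα and Mlh3 to MutLγ, which both cut DNA, while Pms1 belongs to MutLβ, whose role is less clear. In mouse models of Huntington's disease, MutSβ and MutLγ are known to drive lengthening of the CAG repeat in somatic cells of the brain, and loss of Ogg1 is known to slow it. In people, variants near MSH3, PMS1, PMS2, FAN1 and LIG1 are associated with the age at which the disease begins.

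Promoter sequences of 5 of these genes are printed first. Msh3, Msh6 and Lig1 are shown because a window of each holds the core of an E2F site. Genes of DNA replication are classically controlled through this element. Pms1 and Pms2 are shown because each starts head to head with a protein-coding gene whose values are reported. All 8 genes had a promoter entry in RefSeq (11 windows in all, assembly GRCm38.p6), each with 250 bases before and 50 bases after a transcription start. Every window occurred exactly once in build NCBIM37 (mm9), the build of the deposited data, and its NCBIM37 coordinates are given here. Sequences run 5′ to 3′ on the strand of the gene. Capitals mark the letters searched on both strands: the GC box GGGCGG, the CCAAT box CCAAT and the E2F core TTTNNCGC, where N is any base. TATAAA and TGACGTCA were searched as well and occurred in none of the 11 windows.

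Msh3, chr13:93124909-93125208, minus strand: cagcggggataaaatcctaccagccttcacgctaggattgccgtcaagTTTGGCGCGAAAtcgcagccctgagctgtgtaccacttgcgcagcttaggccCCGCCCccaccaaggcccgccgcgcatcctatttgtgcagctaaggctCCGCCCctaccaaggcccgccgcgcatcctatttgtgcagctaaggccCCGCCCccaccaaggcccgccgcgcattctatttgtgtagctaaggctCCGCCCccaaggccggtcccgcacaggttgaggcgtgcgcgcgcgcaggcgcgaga
Msh6, chr17:88374140-88374439, plus strand: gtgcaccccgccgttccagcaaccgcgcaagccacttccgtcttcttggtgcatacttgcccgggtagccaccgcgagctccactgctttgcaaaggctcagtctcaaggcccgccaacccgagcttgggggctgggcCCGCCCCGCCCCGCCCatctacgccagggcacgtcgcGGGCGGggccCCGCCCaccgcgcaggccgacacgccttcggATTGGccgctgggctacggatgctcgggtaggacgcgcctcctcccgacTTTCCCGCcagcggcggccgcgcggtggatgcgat
Lig1, chr7:13863925-13864224, plus strand: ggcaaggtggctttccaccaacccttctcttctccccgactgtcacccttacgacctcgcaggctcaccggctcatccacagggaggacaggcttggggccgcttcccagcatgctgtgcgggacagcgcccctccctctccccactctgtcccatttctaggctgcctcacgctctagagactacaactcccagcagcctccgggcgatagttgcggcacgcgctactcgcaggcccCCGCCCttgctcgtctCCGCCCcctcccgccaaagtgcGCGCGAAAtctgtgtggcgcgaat
Pms1, chr1:53353823-53354122, minus strand: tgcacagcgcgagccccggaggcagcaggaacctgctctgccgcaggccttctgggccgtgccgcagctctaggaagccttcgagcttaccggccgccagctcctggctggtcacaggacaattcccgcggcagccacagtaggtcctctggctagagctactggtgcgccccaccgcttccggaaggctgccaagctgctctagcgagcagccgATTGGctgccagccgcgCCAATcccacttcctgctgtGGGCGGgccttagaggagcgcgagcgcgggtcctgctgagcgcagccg
Pms2, chr5:144670620-144670919, plus strand: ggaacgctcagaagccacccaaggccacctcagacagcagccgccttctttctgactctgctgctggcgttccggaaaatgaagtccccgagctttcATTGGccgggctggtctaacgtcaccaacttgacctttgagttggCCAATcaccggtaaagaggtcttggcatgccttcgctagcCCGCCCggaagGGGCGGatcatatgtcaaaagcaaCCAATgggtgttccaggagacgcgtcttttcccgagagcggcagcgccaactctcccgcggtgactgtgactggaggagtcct

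The Msh3 window holds 4 GC boxes, at positions -150, -102, -54 and -6 from its start, which are evenly spaced. Its 2 E2F cores, at -202 and -198, lie on opposite strands and overlap in the 12 capitals near the 5′ end. The Msh6 window was the richest in GC boxes, with 5, of which 3 overlap one another, and it holds 1 CCAAT box at -34 and 1 E2F core at 16. Lig1 has 3 RefSeq windows, and the window printed holds 2 GC boxes and an E2F core at 27. Of its windows not printed, that at chr7:13862274-13862573 holds none of the motifs. That at chr7:13864364-13864663 holds 1 GC box, and neither holds an E2F core. The Pms2 window holds 3 CCAAT and 2 GC boxes, and the Pms1 window 2 CCAAT boxes and 1 GC box. Of the windows not printed, the Ogg1 window holds 2 GC and 2 CCAAT boxes, both Mlh3 windows hold a single CCAAT box, and the Fan1 window holds none of the motifs. Over the 32544 distinct promoter windows of the RefSeq table, 35.9% hold a GC box, 37.4% a CCAAT box and 5.2% the E2F core. The median of those windows was 53.0% G or C, against 58.3% (Pms2) to 71.7% (Msh6) in the windows printed. The shares are thus not matched for base composition. The motif matches describe letters and were not tested for binding.

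In R6/1 hippocampus, transcripts of Msh6, Mlh3, Lig1, Pms2 and Msh3 were higher than in WT by between 15.4% and 39.2% of the WT mean. Pms1, Fan1 and Ogg1 did not pass the test. No member was called lower. Levels are reads per kilobase of gene model, scaled for depth by the authors (RPKM), and differences are log2 fold changes of log2(RPKM + 0.5), R6/1 over WT, tested with limma over 14446 genes and called at an adjusted p under 0.05. The 5 of 8 genes called stand beside a background in which 48.3% of all tested genes were called, 24.8% as higher and 23.5% as lower in R6/1. All 5 calls were in the upward direction, and the 8 genes had 0.21 as their median log2 fold change, against 0.00 for the whole set of tested genes. The range from the 25th to the 75th percentile of all tested genes ran from -0.17 to 0.15. The authors' deposited table, whose calls covered 40.4% of its genes with an adjusted p, also called 5 of the 8. The tissue was not sorted, so more cells of a type and more RNA per cell cannot be told apart in any of these differences.

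**Figure D1:**
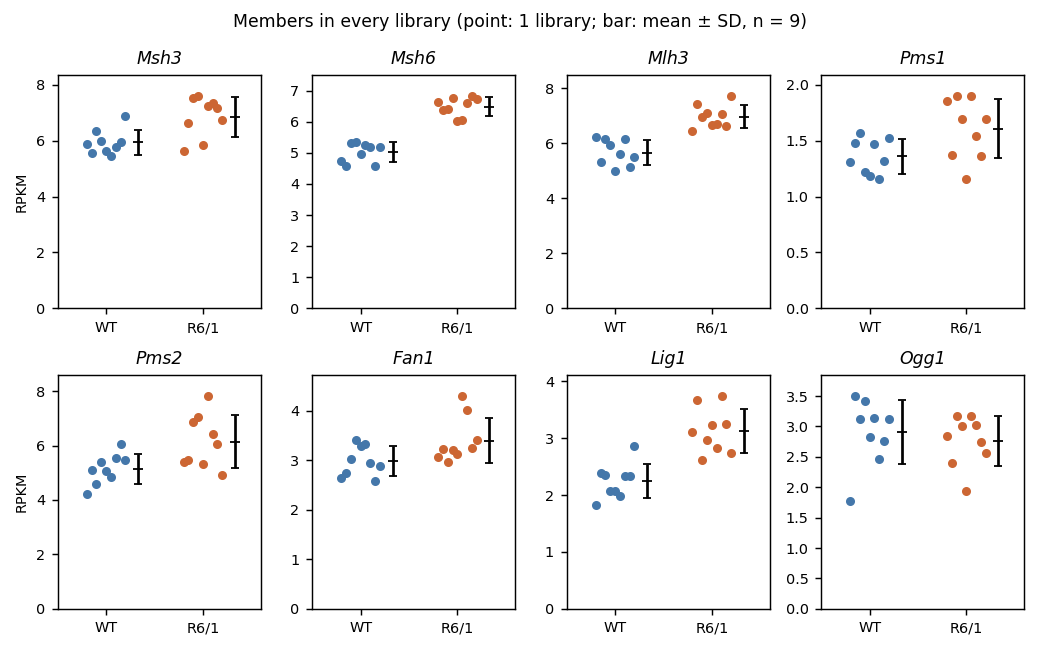
RPKM (vertical axis, from 0) of each of the 8 genes in all 18 libraries, WT in blue and R6/1 in orange, with the mean and SD of 9 libraries as a black bar. Msh6 and Mlh3 show no overlap between genotypes, while the Ogg1 points of both genotypes overlap over most of their range.

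Depth was similar in both genotypes, with 12299434 to 16457022 reads on genes in WT libraries and 13260311 to 16736544 in R6/1 libraries. Scaling each library to its own total of reads, in place of the authors' size factors, moved the median over all tested genes from 0.00 to 0.07 on the log2 scale and the share of calls that were higher from 51.4% to 66.9%. The members' values are given on the authors' scaling, and the 5 called genes had differences larger than that shift.

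Msh3 encodes the loop-binding subunit of MutSβ. It was expressed at between 5.45 and 6.87 RPKM in WT (median 5.86) and between 5.62 and 7.60 RPKM in R6/1 (median 7.15). Most R6/1 libraries were high, with 5 of 9 above the highest WT library, but R6/1 replicates 1 and 5, at 5.62 and 5.85 RPKM, lay among the low WT libraries. The mean was 5.94 ± 0.44 RPKM (SD, n = 9) in WT, and in R6/1 it was 6.85 ± 0.709 RPKM (SD, n = 9). The log2 fold change was 0.19 (SE 0.059, 95% interval 0.06 to 0.31, limma adjusted p 0.0118), a modest rise of the mean, with libraries of both genotypes overlapping. Between 294 and 520 reads per library lay behind these values.

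Msh6, the mismatch-binding subunit of MutSα, had the smallest adjusted p of the 8 genes. WT libraries lay between 4.56 and 5.34 RPKM (median 5.18) and R6/1 libraries between 6.02 and 6.83 RPKM (median 6.6). Every R6/1 library was above every WT library, which was the case for 5.5% of all tested genes. The mean rose from 5.02 ± 0.314 to 6.49 ± 0.296 RPKM (SD, n = 9 each). On the log2 scale this was 0.34 (SE 0.042, 95% interval 0.25 to 0.43, limma adjusted p 1.74e-06), above the value of 94.1% of tested genes. Within each genotype its libraries varied about as much as counting error alone gives: the coefficient of variation was 6.26% in WT and 4.57% in R6/1, against 5.21% from counting.

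Since both MutS dimers are built on the same partner, the balance of Msh6 to Msh3 was also read per library. The ratio of their RPKM values ran from 0.753 to 0.965 in WT (median 0.839) and from 0.838 to 1.18 in R6/1 (median 0.956). The genotypes overlapped. Msh6 exceeded Msh3 in 0 WT and 2 R6/1 libraries, and these 2 were the ones with low Msh3, so the ratio is given as a description with no test. After removal of the genotype means, Msh3 and Msh6 varied with r = 0.26 and rho = 0.27 over the 18 libraries (permutation test with 100000 resamples, adjusted p 0.753 for r and 0.527 for rho over 3 pairs), and r was 0.36 without the 2 libraries farthest from the Msh3 median. Within genotypes r was 0.30 in WT and 0.26 in R6/1. On leaving out 1 library r ran from 0.12 (without R6/1 replicate 5) to 0.38.

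**Figure D2:**
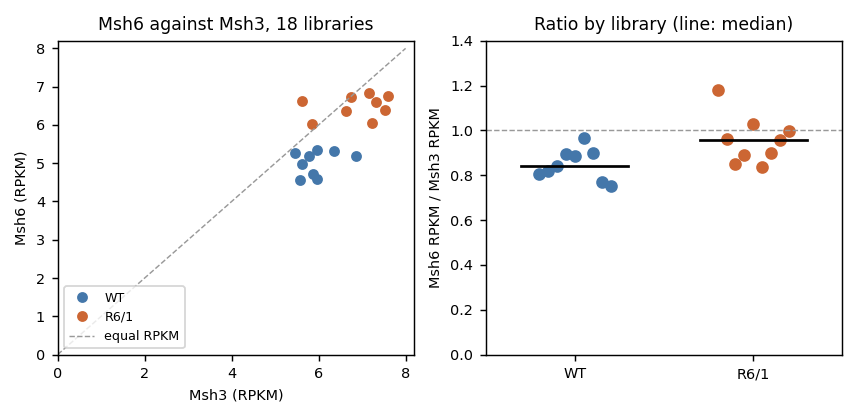
Left, Msh6 RPKM against Msh3 RPKM in 18 libraries (WT blue, R6/1 orange), with a dashed line where both are equal; right, their ratio in each library, with the genotype median as a line. R6/1 libraries lie higher on the Msh6 axis without exception, and 2 of them lie above a ratio of 1.

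Mlh3, the endonuclease subunit of MutLγ, lay between 4.98 and 6.23 RPKM in WT (median 5.60) and between 6.44 and 7.73 RPKM in R6/1 (median 6.96). As for Msh6, the genotypes did not overlap, and these were the only 2 of the 8 genes of which this held. The mean rose from 5.67 ± 0.472 to 6.97 ± 0.412 RPKM (SD, n = 9 each), by 0.28 on the log2 scale (SE 0.049, 95% interval 0.17 to 0.38, limma adjusted p 0.000103). Mlh3 had the most reads of the 8 genes, from 378 to 709 per library.

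Pms2, the endonuclease subunit of MutLα, ranged from 4.21 to 6.06 RPKM in WT (median 5.09) and from 4.91 to 7.82 RPKM in R6/1 (median 6.07). The R6/1 libraries were spread widely: 5 of 9 exceeded the highest WT library, and R6/1 replicate 9, at 4.91 RPKM, lay below the WT median. The log2 fold change of 0.23 (SE 0.080, 95% interval 0.06 to 0.40) passed the threshold with a limma adjusted p of 0.0217. It no longer did when libraries were weighted by their quality (log2 fold change 0.19, limma adjusted p 0.0512). The 3′ end of Pms2 shares 410 exonic bases with Rsph10b2, which has no value in the expression table, and how reads there were assigned is not given in the sources used here.

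Pms1, the MutLβ subunit, was the least abundant of the 8 genes. It was measured at 1.16 to 1.57 RPKM in WT (median 1.32) and 1.16 to 1.90 RPKM in R6/1 (median 1.69), from 51 to 102 reads per library. Of the R6/1 libraries, 5 were above all WT libraries and replicate 5 was below all of them, though it and the lowest WT library both round to 1.16 RPKM. The log2 fold change of 0.17 (SE 0.080, 95% interval 0.00 to 0.34) did not pass (limma adjusted p 0.0775). It did pass on the libraries' own totals (0.23, limma adjusted p 0.0195), with quantile normalization (0.23, 0.0264), with library weights (0.19, 0.0401) and without R6/1 replicate 5 (0.22, 0.0213). At this depth, counting error alone gives a coefficient of variation of 12.1%. Among WT libraries it was 11.4%, close to that value, and among R6/1 libraries it was 16.6%, above it.

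The proportions among the MutL genes were similar in both genotypes. The Mlh3 to Pms2 ratio had a median of 1.1 in each genotype, with ranges of 0.848 to 1.48 and 0.859 to 1.57. The Pms1 to Pms2 ratio had a median of 0.278 in WT and 0.243 in R6/1, so in either genotype Pms1 was the minor MutL transcript per length. These ratios were not tested.

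Fan1 encodes a nuclease of DNA crosslink repair that binds MutL proteins and is known to hold back CAG expansion. WT libraries lay between 2.58 and 3.42 RPKM (median 2.94) and R6/1 libraries between 2.97 and 4.30 RPKM (median 3.24). All 9 R6/1 libraries were above the WT median, but only replicates 6 and 7, at 4.30 and 4.02 RPKM, passed the highest WT library. The log2 fold change of 0.16 (SE 0.070, 95% interval 0.01 to 0.31) did not pass (limma adjusted p 0.0665). It passed on the libraries' own totals (0.22, limma adjusted p 0.0136), with quantile normalization (0.20, 0.0169), without WT replicate 4 (0.18, 0.0441) and without R6/1 replicate 3 (0.18, 0.0469).

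Lig1, the ligase that seals Okazaki fragments and repair patches, had the largest difference of the 8 genes on the log2 scale. WT libraries lay between 1.83 and 2.87 RPKM (median 2.33) and R6/1 libraries between 2.61 and 3.74 RPKM (median 3.11). The groups overlapped through WT replicate 9, at 2.87 RPKM, which stood above 3 R6/1 libraries; without exception the R6/1 libraries exceeded the other WT libraries. The mean rose from 2.25 ± 0.304 to 3.13 ± 0.392 RPKM (SD, n = 9 each). On the log2 scale this was 0.40 (SE 0.075, 95% interval 0.24 to 0.56, limma adjusted p 0.000173), above the value of 96.0% of tested genes. Its annotated 5′ part overlaps 6330408A02Rik on the opposite strand by 1439 bases, 247 of them exonic. That gene had a WT mean of 3.59 RPKM and an R6/1 mean of 3.67 RPKM. Its start, chr7:13864070, lies inside the printed Lig1 window, before the RefSeq start of that window. From that RefSeq start, Lig1 and 6330408A02Rik therefore also run head to head.

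Ogg1, the glycosylase that removes oxidised guanine, was the member with no upward difference. It ranged from 1.78 to 3.50 RPKM in WT (median 3.12) and from 1.93 to 3.18 RPKM in R6/1 (median 2.84). The groups overlapped over nearly their whole range. The log2 fold change was -0.05 (SE 0.1, 95% interval -0.27 to 0.16, limma adjusted p 0.684), and on the libraries' own totals it was 0.01 (limma adjusted p 0.959). The interval is wide, with 35 to 86 reads per library and a coefficient of variation of 18.2% in WT. Its upper bound lies below the Msh3 estimate of 0.19, but the Msh3 interval, 0.06 to 0.31, overlaps that of Ogg1. The differences of these genes were not tested against each other.

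**Figure D3:**
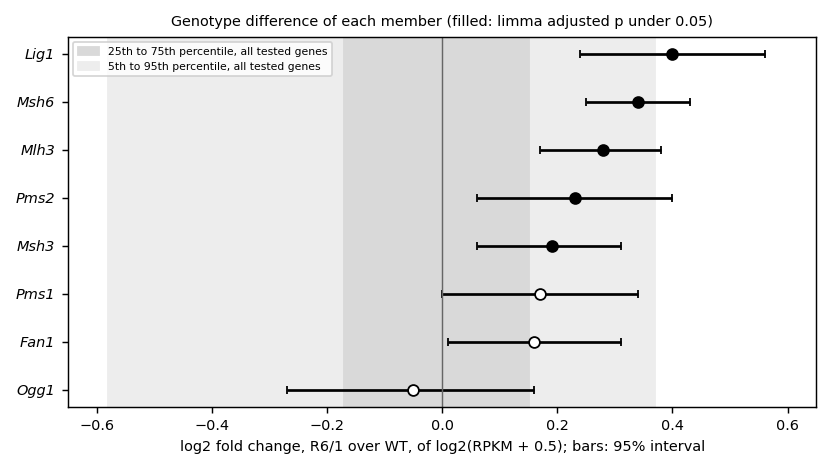
Log2 fold change (R6/1 over WT, horizontal axis) of each of the 8 genes with its 95% interval; filled points had a limma adjusted p under 0.05, and the grey bands mark the percentiles of all 14446 tested genes. Lig1, at 0.40, lies beyond the 95th percentile of 0.37, and Ogg1, at -0.05, is the only point left of 0.

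Read per length, the 8 genes fell into an upper and a lower tier. In WT the order was Msh3, Mlh3, Pms2 and Msh6, from 5.94 down to 5.02 RPKM, and neighbours in this tier differed by less than the larger of their SDs. Fan1 and Ogg1 followed at 2.99 and 2.90 RPKM, also closer than their SDs, then Lig1 and, lowest, Pms1 at 1.36 RPKM. In R6/1 the order within the upper tier was Mlh3, Msh3, Msh6 and Pms2, from 6.97 to 6.15 RPKM, again with no neighbours further apart than their SDs. Lig1 stood above Ogg1 in 6 of 9 R6/1 libraries, while Ogg1 stood above Lig1 in 8 of 9 WT libraries. None of the 8 was an abundant transcript, since between 14.7% (Pms1) and 42.8% (Msh3) of tested genes had lower means.

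The members did not share high and low libraries throughout. R6/1 replicate 5 was the lowest R6/1 library for Msh6, Pms1 and Ogg1 and the next to lowest for Msh3. WT replicate 1 was the lowest WT library for Pms2, Lig1 and Ogg1 but the highest for Mlh3. Outside the 8 genes, the gene most alike each member over the 18 libraries, by Pearson r after removal of the genotype means, was Ythdc2 for Msh3 (0.79), Mir744 for Msh6 (0.83), Zfp709 for Mlh3 (0.85), Cpped1 for Pms1 (0.83), Stx3 for Pms2 (0.80), Mri1 for Fan1 (0.75), Galt for Lig1 (0.81) and Zfp46 for Ogg1 (0.91). Mir744 was near the filter on low values, with means of 0.47 RPKM in WT, under the 0.5 RPKM of the filter, and 1.28 RPKM in R6/1. Each partner is the highest of 14438 genes compared, and all genes of a library share its depth and dissection, so these values are a description. The 8 members had 8 different partners by this measure, which, with so many genes compared, does not show whether the members vary together.

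Coordinates and neighbours were then examined, all on NCBIM37. Msh3 spans chr13:92981836-93124958 (minus strand, 26 exonic blocks). Msh6 spans chr17:88374390-88390223 (plus strand, 10 exonic blocks) and overlaps the end of Fbxo11 by 25 bases. Mlh3 spans chr12:86575479-86611541 (minus strand, 13 exonic blocks) and begins 1806 bases after the end of Acyp1 on the same strand. Pms1 spans chr1:53246031-53353862 (minus strand, 15 exonic blocks) and starts 77 bases from Ormdl1, which runs the other way. Pms2 spans chr5:144670833-144698178 (plus strand, 16 exonic blocks) and starts 117 bases from Aimp2, also divergent. Fan1 spans chr7:71491644-71518981 (minus strand, 14 exonic blocks), Lig1 chr7:13862632-13896782 (plus strand, 29 exonic blocks) and Ogg1 chr6:113276966-113285062 (plus strand, 8 exonic blocks). Ogg1 also starts 225 bases from a divergent transcript, Gm15492, which is not protein-coding and has no value in the expression table. Whether counting used the strand of the reads is not given in the sources used here, so reads from the overlaps cannot be told apart with certainty.

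By the annotated gene starts, both the divergent neighbour of Pms1 and that of Pms2 were higher in R6/1. The gene divergent from the RefSeq start of the printed Lig1 window, 6330408A02Rik, was not called (log2 fold change 0.03, limma adjusted p 0.659). Ormdl1, a regulator of sphingolipid synthesis, rose from 5.21 ± 0.918 to 6.99 ± 0.811 RPKM (SD, n = 9 each; log2 fold change 0.40, limma adjusted p 0.000502). Aimp2, a scaffold of the aminoacyl-tRNA synthetase complex, rose from 15.4 ± 1.12 to 17.2 ± 1.22 RPKM (SD, n = 9 each; log2 fold change 0.15, limma adjusted p 0.0132).

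Across libraries, however, Pms1 with Ormdl1 and Pms2 with Aimp2 did not vary together to a degree these 18 libraries could show. With the genotype means removed, r was 0.05 for Pms1 with Ormdl1 (rho 0.14) and -0.18 for Pms2 with Aimp2 (rho -0.24). In the permutation test, adjusted over 3 pairs, the adjusted p for r was 0.845 and 0.753, and for rho it was 0.579 and 0.527. Without the 2 libraries farthest from the member's median, r was 0.18 and -0.38. Within WT the values were 0.10 and -0.52, and within R6/1 they were 0.01 and 0.06. For Pms1 with Ormdl1, r ran from -0.02 to 0.25 on leaving out 1 library, so its sign rests on single libraries. For Pms2 with Aimp2 the values ran from -0.47 (without R6/1 replicate 9) to -0.07 (without R6/1 replicate 6).

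The other neighbours went separate ways. Acyp1, an acylphosphatase gene upstream of Mlh3, fell from between 11.1 and 15.8 RPKM in WT to between 6.64 and 10.7 RPKM in R6/1. No library of one genotype reached the range of the other, and the log2 fold change was -0.54 (SE 0.075, limma adjusted p 7.01e-06), opposite in sign to that of Mlh3. Fbxo11, a ubiquitin ligase subunit downstream of Msh6, rose from 39.9 ± 1.98 to 45.9 ± 3.41 RPKM (SD, n = 9 each; log2 fold change 0.20, limma adjusted p 0.000623). Camk1, a calcium-dependent kinase gene that shares 232 exonic bases with Ogg1 on the opposite strand, had means of 20.2 ± 2.75 (WT) and 21.1 ± 2.22 RPKM (R6/1; SD, n = 9 each; log2 fold change 0.06, limma adjusted p 0.537). Its r with Ogg1 over the 18 libraries was 0.08 (rho -0.15), a pair added after the data were seen and described only.

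**Figure D4:**
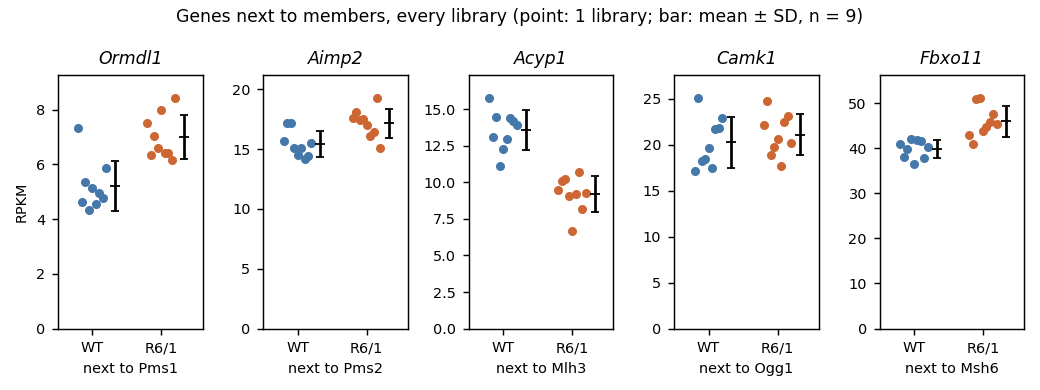
RPKM (vertical axis, from 0) of 5 genes next to members in all 18 libraries, WT in blue and R6/1 in orange, with mean and SD (n = 9) as a black bar and the member named under each panel. Acyp1 is lower in R6/1 with no overlap, while the Camk1 points of both genotypes overlap.

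Lamin B1 domains, the long stretches of chromatin that contact the nuclear lamina, were compared with the 8 loci. Of the 8 genes, 7 lay in no domain of either genotype. The nearest domain to the Msh6 start was 0.83 Mb away in the WT list and 3.02 Mb in the R6/1 list. For Msh3 these distances were 2.07 and 4.21 Mb, and for Mlh3 3.82 and 2.56 Mb. Lig1 was the exception: the whole gene lay inside a domain in both lists, chr7:10545001-16243000 in WT and chr7:10508001-16280000 in R6/1. The authors' score of this domain was 18.6 in the WT list and 9.0 in the R6/1 list. With 1 list per genotype these positions and scores have no replicate spread. Scores of the other domains were not compared between the lists. A difference in score over the whole list therefore cannot be told apart from one at this domain.

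The Lig1 domain was therefore looked at as a whole. It holds the starts of 18 tested genes, Lig1 included, of which 11 were called higher and 0 lower in R6/1, and their median was 0.16 on the log2 scale. Among all tested genes the called-higher share was 24.8%. With quantile normalization and on the libraries' own totals of reads, 12 of the 18 were called higher and 0 lower. Lig1 had the largest log2 fold change among them. This set was chosen after the position of Lig1 was seen and was given no test of its own.

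Genes that act with these 8 proteins were then counted, from 6 lists written from general knowledge. Together the lists held 72 genes, of which 63 passed the filter on low values, and 21 were called higher, 8 lower and 34 neither, with a median log2 fold change of 0.08. The called share of these lists, 29 of 63, is thus close to the 48.3% of all tested genes. Among lists with tested genes, only base excision repair had fewer genes called higher than lower, 2 against 3 of 17 tested. On the libraries' own totals of reads this became 4 against 3.

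Downstream mismatch repair held 15 tested genes, of which 6 were called higher and 1 lower (median log2 fold change 0.16). On the libraries' own totals 9 were called higher and 1 lower (median 0.23). Pcna, the sliding clamp that directs MutL cutting and polymerase delta, lay between 26.8 and 30.4 RPKM in WT and between 33.8 and 39.6 RPKM in R6/1, with no overlap (log2 fold change 0.37, limma adjusted p 7.46e-08). Rpa2 and Rpa1, subunits of the single-strand binding protein RPA, had log2 fold changes of 0.34 (limma adjusted p 7.85e-05) and 0.19 (limma adjusted p 0.000272). Exo1, the exonuclease of the pathway, had means of 0.101 RPKM (WT) and 0.0674 RPKM (R6/1), under the filter, and so were Msh4 and Msh5, the MutS genes of meiosis, at 0.181 RPKM or less.

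Base excision repair, the pathway of Ogg1, had calls in both directions, with 2 genes called higher and 3 lower of 17 tested (median log2 fold change -0.02). On the libraries' own totals the counts were 4 and 3 and the median was 0.05, so the sign of this median depends on the scaling. Polb, the gap-filling polymerase, fell from between 16.7 and 25.1 RPKM to between 11.9 and 15.8 RPKM with no overlap (log2 fold change -0.64, limma adjusted p 2.2e-07). Parp1, which senses strand breaks, fell as well (log2 fold change -0.35, limma adjusted p 8.21e-06). Fen1, the flap endonuclease that works with Lig1, rose from 5.31 ± 0.508 to 7.11 ± 0.74 RPKM (SD, n = 9 each; log2 fold change 0.39, limma adjusted p 4.77e-05). Lig3, the other nick-sealing ligase of the list, and its partner Xrcc1 did not pass (log2 fold changes 0.08 and 0.00, limma adjusted p 0.194 and 0.992).

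In crosslink repair, the pathway of Fan1, 6 of 16 tested genes were called higher and 3 lower (median log2 fold change 0.15), and on the libraries' own totals 8 and 1 (median 0.22). Fancg, a subunit of the Fanconi anaemia core complex, lay between 2.94 and 4.49 RPKM in WT and between 4.64 and 6.49 RPKM in R6/1 (log2 fold change 0.47, limma adjusted p 5.54e-05). Wdr48, a partner of the deubiquitinase Usp1, and Fancc, another core complex subunit, had log2 fold changes of 0.21 (limma adjusted p 0.000134) and 0.29 (limma adjusted p 0.000984). In nucleotide excision repair 6 of 13 genes were called higher and 1 lower (median log2 fold change 0.14), and on the libraries' own totals 8 and 0 (median 0.22). Ercc3, a helicase of transcription factor IIH, rose from 11.7 ± 0.654 to 16.5 ± 1.35 RPKM with no overlap (SD, n = 9 each; log2 fold change 0.48, limma adjusted p 1.05e-07). Ddb1, a damage-recognition and ubiquitin ligase subunit, and Ercc5, a nuclease, had log2 fold changes of 0.26 (limma adjusted p 1.28e-06) and 0.31 (limma adjusted p 0.00022).

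Of 3 other genes near association signals for age at onset in people, 2 were tested and 1 was called, as higher. Rrm2b, a ribonucleotide reductase subunit of non-dividing cells, lay between 12.1 and 14.4 RPKM in WT and between 14.8 and 18.2 RPKM in R6/1. The genotypes did not overlap (log2 fold change 0.33, limma adjusted p 1.39e-06). Med15, a Mediator subunit, did not pass (log2 fold change 0.02, limma adjusted p 0.742). Ccdc82 was listed at 0 in every library.

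**Figure D5:**
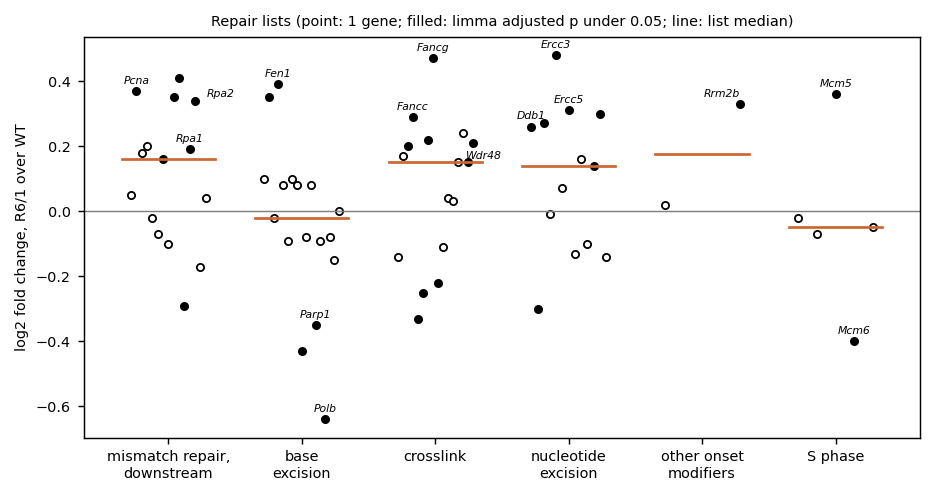
Log2 fold change (R6/1 over WT, vertical axis) of each tested gene of 5 repair or modifier lists and of the list of cycling cells (S phase), 1 point per gene, filled where the limma adjusted p was under 0.05, with the list median as an orange line. Most called genes lie above 0 in the mismatch, crosslink and nucleotide excision lists; in base excision repair Polb is lowest at -0.64, and the S-phase list has 1 called gene on each side.

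Several of these genes are also known as genes of replicating cells, so a list of 12 such genes was read beside them. Only 5 passed the filter on low values, 1 of which was called higher and 1 lower (median log2 fold change -0.05, and 0.02 on the libraries' own totals). Both are subunits of the replicative helicase: Mcm5 (log2 fold change 0.36, limma adjusted p 0.000821) and Mcm6 (log2 fold change -0.40, limma adjusted p 0.000145). The summed level of the 12 genes was 17.4 to 21.9 RPKM in WT and 15.6 to 19.6 RPKM in R6/1, ranges that overlapped, but Tyms alone had a WT mean of 9.51 RPKM and Mcm6 one of 3.66 RPKM, so this sum says little about the other genes.

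The 7 genes of this list under the filter include those most specific to dividing cells, and they did not all go one way. Mki67, a nuclear protein of cycling cells, was at 0.231 to 0.407 RPKM in WT and 0.0577 to 0.179 RPKM in R6/1. Top2a, a topoisomerase of mitosis, was at 0.140 to 0.365 and 0.00 to 0.0656 RPKM. The genotypes did not overlap for either gene. The authors' deposited table gives log2 fold changes of -1.28 for Mki67 (adjusted p 1.04e-14), -1.70 for Top2a (6.72e-14), -0.76 for Ccna2 (4.88e-05) and -0.67 for Rrm2 (0.00429). In the same authors' deposited table Cdk1 (-0.48, adjusted p 0.0833), Ccnb1 (0.34, 0.23) and Birc5 (0.32, 0.147) did not pass. All 9 R6/1 libraries were above the WT median for Ccnb1 and 8 of 9 for Birc5. The part of these genes in the differences of the 8 members was not tested.

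Markers of the neuron types of the hippocampus were mostly called lower in R6/1, where 23.5% of all tested genes were called lower. All 6 dentate granule neuron markers were called lower, with a summed level of 65.1 to 107 RPKM in WT and 30.5 to 37.8 RPKM in R6/1. All 5 CA3 pyramidal markers (81.1 to 137 against 49.8 to 61.7 RPKM) and 5 of 6 CA1 pyramidal markers (158 to 226 against 120 to 134 RPKM) were also called lower. Of 7 markers each, 5 were called lower for inhibitory neurons (355 to 433 against 216 to 283 RPKM), for astrocytes (476 to 658 against 376 to 526 RPKM) and for oligodendrocytes (1020 to 1310 against 632 to 1090 RPKM), and 3 for microglia (137 to 197 against 111 to 173 RPKM). Oligodendrocyte precursor markers had 1 of 5 called lower, near the share of all tested genes, and endothelial and choroid plexus markers 0 of 5 each in either direction. Among all these lists, 1 CA1 and 1 astrocyte marker were called higher, and no marker was at 0. Choroid plexus markers varied widely between libraries of both genotypes (25.4 to 1070 against 38.7 to 1740 RPKM). The part of these markers in the differences of the 8 genes was not tested.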

How the data were processed

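RNA-seq of mouse hippocampus (9 WT and 9 R6/1 libraries, stranded messenger RNA) and the lamin B1 domain lists were used. The authors deposited RPKM per gene. TopHat, DESeq2 and build mm9 (RNA) and Bowtie (ChIP) are named per the submitters' processing notes; versions, the read counter, the annotation and its use of strand are not given in the sources used here. The authors' deposited table of the genotype comparison holds, per the file headers, a mean normalized signal (baseMean), a log2 fold change, its standard error and a test score, with the raw p-value and its adjusted form, the latter missing for 6113 genes. The deposited domain lists give 1 score per domain, used only as the authors' own value. For 99.89% to 99.92% of values, the RPKM steps gave whole reads within a tolerance of 0.05, which yielded the depth per library. No column of per-sample values was left unused (0 columns).

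Genes were tested with limma 3.58.1 (R 4.3.3) on log2(RPKM + 0.5), with a mean-variance trend, two-sided, for genes whose mean over the libraries was 0.5 RPKM or more, with Benjamini-Hochberg adjustment over all of them. The test was tried on simulated data. Overlap with a domain needed at least 1 base. Loci came from GENCODE on NCBIM37, and promoters from RefSeq (GRCm38.p6). The pathway genes named are, per list, at most the 3 with the smallest adjusted p under 0.05; the 8 members, their listed neighbours and the gene most alike each member are named in any case. Members and lists were chosen with earlier results of these data known, so their counts are not independent support. A few neighbours and list genes are not reported here. Alternatives covered the pseudocount, the filter, scaling, the replicate number, the variance model, recovered reads (voom) and leaving out each library.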

Additional observations from a re-analysis of the deposited data

How the results depend on the processing

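The calls of Msh3, Msh6, Mlh3 and Lig1 held under all 12 alternative settings and on leaving out each of the 18 libraries, with log2 fold changes of 0.18 to 0.26, 0.32 to 0.41, 0.26 to 0.35 and 0.35 to 0.48 under the settings. Quantile normalization brought Pms1 (0.23, limma adjusted p 0.0264) and Fan1 (0.20, 0.0169) past the threshold. So did the libraries' own totals of reads (Pms1 0.23, 0.0195; Fan1 0.22, 0.0136), where Ogg1 changed sign to 0.01 (0.959). Library weights brought Pms1 past it (0.19, 0.0401) and Pms2 short of it (0.19, 0.0512). The causes of these changes were not tested. On leaving out 1 library the log2 fold changes ran from 0.17 to 0.22 for Msh3, 0.33 to 0.35 for Msh6, 0.26 to 0.29 for Mlh3, 0.15 to 0.22 for Pms1, 0.19 to 0.27 for Pms2, 0.12 to 0.18 for Fan1, 0.37 to 0.44 for Lig1 and -0.12 to 0.00 for Ogg1. Between 5 and 6 members and 27 and 31 pathway genes were then called. The r of Pms2 with Aimp2 ran from -0.47 to -0.07, that of Msh3 with Msh6 from 0.12 to 0.38, and that of Pms1 with Ormdl1 from -0.02 to 0.25 (-0.02 without R6/1 replicate 8, -0.01 without WT replicate 4, 0.00 without WT replicate 9). Over the other settings 5 to 7 members were called.

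Both genotypes carry replicate numbers 1 to 9 with no statement that a number is shared. The deviations of same-numbered libraries correlated at -0.053 to 0.237, above 0.1 in 3 of 9 pairs, and 2 of 9 libraries of each genotype correlated best with their own number, so the numbers were not taken as pairs. With the replicate number as a block, 7133 genes were called in place of 6980, and the 8 members kept their side of the threshold (Msh3 0.19, limma adjusted p 0.013; Msh6 0.34, 8.22e-05; Mlh3 0.28, 0.000723; Pms1 0.17, 0.0585; Pms2 0.23, 0.0258; Fan1 0.16, 0.0557; Lig1 0.40, 0.000934; Ogg1 -0.05, 0.675).

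Pms1 has no value under the filter of at least 2 RPKM. A count model was not run because the deposited unit is RPKM; voom on the recovered reads was. Depth limits Pms1 and Ogg1 most, at 51 to 102 and 35 to 86 reads per library. Intervals that rest on reads cover counting error only.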

Other observations

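Other genes of the same lists, chosen after their values were seen, moved in both directions within 1 complex. Of the subunits of replication factor C, which loads the Pcna clamp, Rfc1, Rfc3 and Rfc4 were called higher in R6/1, by 0.16, 0.35 and 0.41 on the log2 scale (limma adjusted p 0.00709, 0.00492 and 0.00141). Rfc5 was called lower, from 5.15 ± 0.573 to 4.11 ± 0.478 RPKM (SD, n = 9 each; log2 fold change -0.29, limma adjusted p 0.00139), and Rfc2 did not pass (log2 fold change -0.10, limma adjusted p 0.0734). Beside Ogg1, the oxidised-base glycosylase Neil1 was called lower (log2 fold change -0.43, limma adjusted p 0.00902).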
